A study of Mus musculus with 8 samples.

Results

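The genes described here mark the epithelial, biliary and mesenchymal identities of liver cells. They are Krt7, Krt8, Krt18, Krt19, Vim, Cdh1, Cdh2, Epcam, Spp1 and Sox9, picked by symbol as keratins, cadherins and biliary or mesenchymal markers, and they make up 10 of the 55401 genes listed for each sample. RNA-seq of poly(A) RNA compared 4 control dishes of AML12 cells with 4 dishes exposed for 1 h to Opti-ELF-WMF, a pulsed extremely low frequency weak magnetic field. AML12 is an immortal hepatocyte line established from the liver of a mouse transgenic for human TGF alpha, and all 8 dishes held it in DMEM/F-12 with fetal bovine serum, dexamethasone, insulin, transferrin and selenite. The field peaked at 100 mG (10 µT), in pulses of 4 ms whose frequency climbed from 1 to 8 Hz over 8 s before starting again. Control dishes received no pulsed field, while a static background field remained in the incubator. Each group had its own incubator, both of the same model, and the control device was not running. The incubator and the field therefore cannot be told apart. All dishes came from 1 batch of 1 line, so p-values measure only the spread between these dishes.

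Values are TPM, a share of transcripts corrected for gene length that sums to the same total in each dish. This unit keeps no record of sequencing depth, so it is unknown how many reads stand behind a value, and a value of 0 is reported as listed at 0. In bulk RNA, fewer cells that carry a transcript and less of it per cell cannot be told apart.

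Keratins form intermediate filaments as obligate pairs of a type I and a type II protein. Krt8 (type II) and Krt18 (type I) are the pair of hepatocytes, and bile duct cells add Krt7 (type II) and Krt19 (type I). Vim encodes vimentin, the filament protein of mesenchymal cells that many cultured epithelial lines also carry. Loss of E-cadherin (Cdh1) with gain of N-cadherin (Cdh2) and vimentin is the textbook signature of epithelial to mesenchymal transition (EMT), although adult hepatocytes carry both cadherins. Sox9, a transcription factor, Spp1, the secreted glycoprotein osteopontin, and Epcam, a surface adhesion molecule, mark bile duct and progenitor cells.

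Among the members, epithelial markers were abundant beside Vim and Cdh2 in every dish, and Epcam was nearly absent. After exposure, Krt8, Krt18, Vim and Cdh2 had mean TPM values higher by 5.04%, 6.49%, 7.98% and 6.35% on deposited TPM, and none of these differences passed the test after adjustment for all genes, which does not show that the groups are equal. On 2 other scalings the log2 fold changes were smaller, at 0.04 in place of 0.07 for Krt8 and 0.06 in place of 0.09 for Cdh2, and the groups of both overlapped. The values of Krt7, Krt19, Cdh1, Spp1 and Sox9 overlapped between the groups. Differences were tested with limma on log2(TPM + 1) over the 12122 genes that reached a TPM of 1 in 4 or more dishes, with Benjamini-Hochberg adjustment. The scale understates the change of low genes.

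All members but Epcam met this abundance limit, so 9 were tested. Over all tested genes, 0 (0%) had an adjusted p under 0.05 by limma, and 1894 (15.6%) had an unadjusted p under 0.05, of which 1451 (12.0%) had higher and 443 (3.65%) lower values in exposed dishes. This split depends on scaling, with 673 higher and 755 lower after median-of-ratios scaling and 693 higher and 675 lower after rescaling without mitochondrial genes. Of the 9 tested members, 4 had an unadjusted p under 0.05, all with higher values in exposed dishes, against 0 and 2 on those scalings, and the adjusted p of the members ran from 0.166 to 0.858. Every exposed dish lay above every control dish for 3 members. The same separation, in either direction, was found for 1196 of all tested genes (9.87%), and with exposed dishes higher for 971 (8.01%). The median log2 fold change was 0.024 over the 9 members and 0.026 over all tested genes, and 7720 of the 12122 genes (63.7%) had higher values in exposed dishes. So did 8 of the 9 members on deposited TPM, and 4 of 9 (Krt8, Krt18, Vim and Cdh2) on the same 2 scalings, where 49.2% and 49.1% of all tested genes had higher values.

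The members spanned levels from 2305 TPM to nearly 0. By the mean of all 8 dishes, Krt8 stood first (2305 TPM, place 43 among all genes), followed by Krt18 (1967 TPM), Vim (1407 TPM), Krt19 (1161 TPM), Spp1 (387 TPM), Cdh1 (174.7 TPM), Cdh2 (118.6 TPM), Krt7 (69.0 TPM), Sox9 (31.0 TPM) and Epcam (0.0475 TPM). This order held in 8 of 8 dishes. The ranges of neighbours in the order did not overlap for any of the 9 steps, so each step exceeded the spread between dishes. The narrowest steps were Krt8 over Krt18, a ratio of means of 1.17, and Vim over Krt19, a ratio of 1.21. A mesenchymal filament gene was thus listed between the keratins of this line, above Krt19 and below Krt18.

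**Figure D1:**
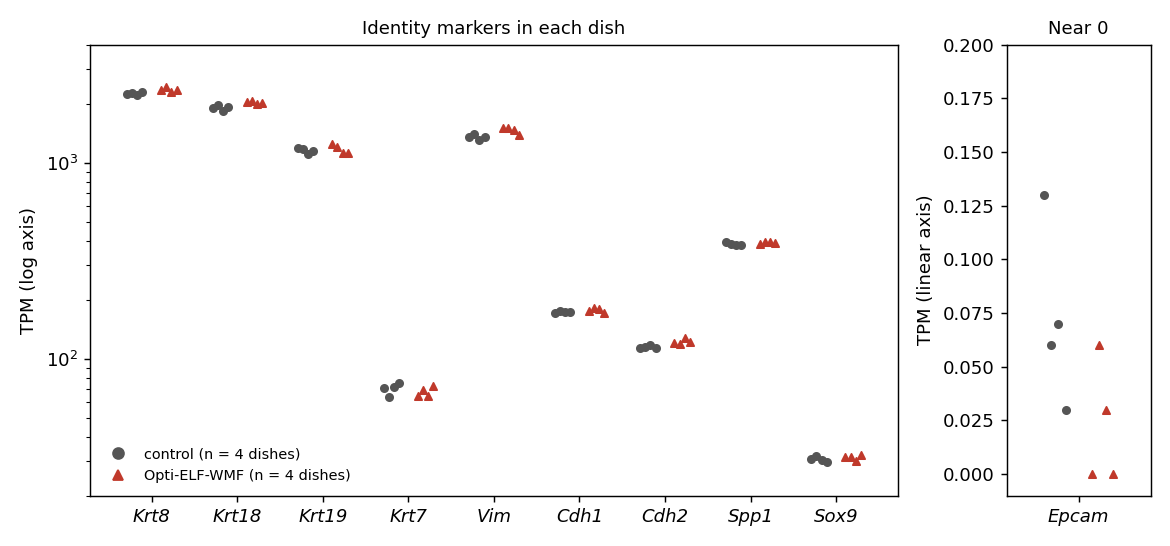
TPM of each member in each dish, on a log axis for 9 members and on a linear axis for Epcam, with control dishes as grey circles and Opti-ELF-WMF dishes as red triangles (n = 4 each). Krt8 and Krt18 lie highest, between 1825 and 2431 TPM, Sox9 lies near 31.0 TPM, and Epcam does not exceed 0.13 TPM.

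Among the keratins, Krt8 (ENSMUSG00000049382) lies on the minus strand of GRCm38 at chr15:101996698-102004482, and Krt18 (ENSMUSG00000023043) on the plus strand at chr15:102028180-102032027. The genes are 23697 bases apart and point away from each other, with 1 annotated gene, Gm36026, in or reaching into the gap. Promoter sequence from RefSeq (GRCm38.p6) was matched for 6 of the 10 members, Krt7, Krt8, Krt18, Vim, Epcam and Spp1. Shown are Krt8 and Krt18, the neighbours whose values resembled each other most closely, and Epcam, the member near 0. The window searched was the 250 bases before each RefSeq start, and the stretch shown ends where the first annotated exon begins. It covers chr15:102004483-102004592 (minus strand) for Krt8, chr15:102027966-102028179 (plus strand) for Krt18 and chr17:87635729-87635978 (plus strand) for Epcam. Capitals mark matches on either strand to 5 motifs, namely the TATA box spelled TATAAA, the GC box spelled GGGCGG, the box spelled CCAAT, the AP-1 site spelled TGANTCA and the E-box spelled CAGGTG. Snail and Zeb repressors bind this E-box, which was added to the search after the sequences had been seen.
Krt8: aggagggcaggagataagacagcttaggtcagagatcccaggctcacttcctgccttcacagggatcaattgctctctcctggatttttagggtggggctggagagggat
Krt18: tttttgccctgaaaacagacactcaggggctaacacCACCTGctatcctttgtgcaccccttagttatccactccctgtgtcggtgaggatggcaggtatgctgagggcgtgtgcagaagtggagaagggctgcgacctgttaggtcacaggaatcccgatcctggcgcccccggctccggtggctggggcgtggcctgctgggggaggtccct
Epcam: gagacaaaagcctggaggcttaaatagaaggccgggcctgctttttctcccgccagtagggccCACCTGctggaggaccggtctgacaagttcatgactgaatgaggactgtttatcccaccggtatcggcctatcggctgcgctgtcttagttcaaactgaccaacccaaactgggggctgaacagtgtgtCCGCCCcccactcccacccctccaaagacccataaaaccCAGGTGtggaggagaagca
The Epcam window held 2 E-boxes, 187 and 19 bases before the start, and a GC box 58 bases before it. The Krt18 window held 1 E-box, 214 bases before the start, and the Krt8 window 1, at 111 bases, inside the annotated exon and so not shown. Of the windows not shown, Krt7 held 1 E-box and 4 GC boxes, 1 of 2 Spp1 windows held 1 E-box, and Vim held 0. Annotated exons covered 205 of the 250 bases of the Krt7 window, and the whole of the Vim window and the other Spp1 window. The Krt7 matches, like that of Krt8, lay past the start of the first annotated exon. The E-box was thus found for abundant members as well as for Epcam, and for Krt18 and Spp1 it lay before any annotated exon. An E-box was found in 17.2% of the 32851 promoter windows of this length, a GC box in 32.7%, a CCAAT box in 33.8%, a TATA box in 12.4% and an AP-1 site in 6.75%. None of the other 4 motifs was matched in the Krt8 or Krt18 window. A match is a description of the letters and no evidence of binding.

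Krt8, the type II partner, measured 2252, 2254, 2206 and 2280 TPM in control dishes 1 to 4 and 2348, 2431, 2305 and 2361 TPM in exposed dishes 1 to 4. The lowest exposed dish lay above the highest control dish, by less than the distance between the lowest and highest dish of either group. The log2 fold change was 0.07 (standard error 0.02, 95% interval 0.02 to 0.12, unadjusted p = 0.0138, adjusted p = 0.194, limma), with group means of 2248 ± 31.1 and 2361 ± 52.6 TPM (SD, n = 4 each). It was 0.04, with overlapping groups, after median-of-ratios scaling and after rescaling without mitochondrial genes.

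Krt18, the type I partner, measured 1911, 1963, 1825 and 1923 TPM in control dishes and 2036, 2071, 1992 and 2017 TPM in exposed dishes. Control dish 3 was the lowest and exposed dish 2 the highest, and the groups did not overlap. The log2 fold change was 0.09 (standard error 0.03, 95% interval 0.03 to 0.15, unadjusted p = 0.00727, adjusted p = 0.166, limma), with group means of 1905 ± 58.0 and 2029 ± 33.6 TPM (SD, n = 4 each). The same 2 scalings gave 0.06, and the groups overlapped with median-of-ratios scaling only. The ratio of Krt8 to Krt18 ran from 1.15 to 1.21 in control dishes and from 1.15 to 1.17 in exposed dishes, so the balance of the pair overlapped between the groups.

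Krt19, the type I keratin of bile ducts, lies on the minus strand at chr11:100140810-100148665 (ENSMUSG00000020911). It measured 1188, 1170, 1101 and 1153 TPM in control dishes and 1244, 1197, 1124 and 1115 TPM in exposed dishes. The groups overlapped, with exposed dishes 1 and 2 above all control dishes and exposed dishes 3 and 4 among them (log2 fold change 0.02, standard error 0.04, adjusted p = 0.858, limma).

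Krt7, the type II keratin of bile ducts, lies on the plus strand at chr15:101411043-101430313 (ENSMUSG00000023039). Its values were 71.1, 63.5, 71.6 and 75.4 TPM in control dishes and 64.1, 69.4, 64.3 and 72.4 TPM in exposed dishes. It had lower mean values in exposed dishes on every scaling, whereas Krt19, Cdh1, Spp1 and Sox9 did so on 2 scalings only, and it had the widest relative spread of the 9 tested members, a pooled coefficient of variation of 6.57% against a median of 5.77% over all tested genes (log2 fold change -0.06, standard error 0.06, adjusted p = 0.683, limma). Krt8 was 30.3 to 36.6 times as abundant as Krt7, per length, in single dishes.

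The whole keratin family was counted after these values had been seen. Of 53 protein-coding keratin genes on chromosomes 11 and 15, 7 met the abundance limit and 46 did not, and the 4 keratins among the members held 93.8% to 94.2% of all keratin TPM in each dish. Krt20, a type I keratin of gut epithelium, held most of the rest, at 326.7 TPM. Summed over the family, type I exceeded type II keratins by a ratio of 1.45 ± 0.029 in control and 1.45 ± 0.030 in exposed dishes (SD, n = 4 each). Together the keratins accounted for 0.585% of TPM.

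Vim lies on the plus strand at chr2:13573927-13582826 (ENSMUSG00000026728) and measured 1355, 1401, 1304 and 1352 TPM in control dishes and 1509, 1494, 1459 and 1381 TPM in exposed dishes. Exposed dishes 1 to 3 lay above all control dishes, whereas exposed dish 4 lay below control dish 2, so the groups overlapped by this pair of dishes. Vim had the largest log2 fold change of the 9 tested members, 0.11 (standard error 0.03, 95% interval 0.04 to 0.18, unadjusted p = 0.00824, adjusted p = 0.169, limma), with group means of 1353 ± 39.7 and 1461 ± 57.2 TPM (SD, n = 4 each).

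**Figure D2:**
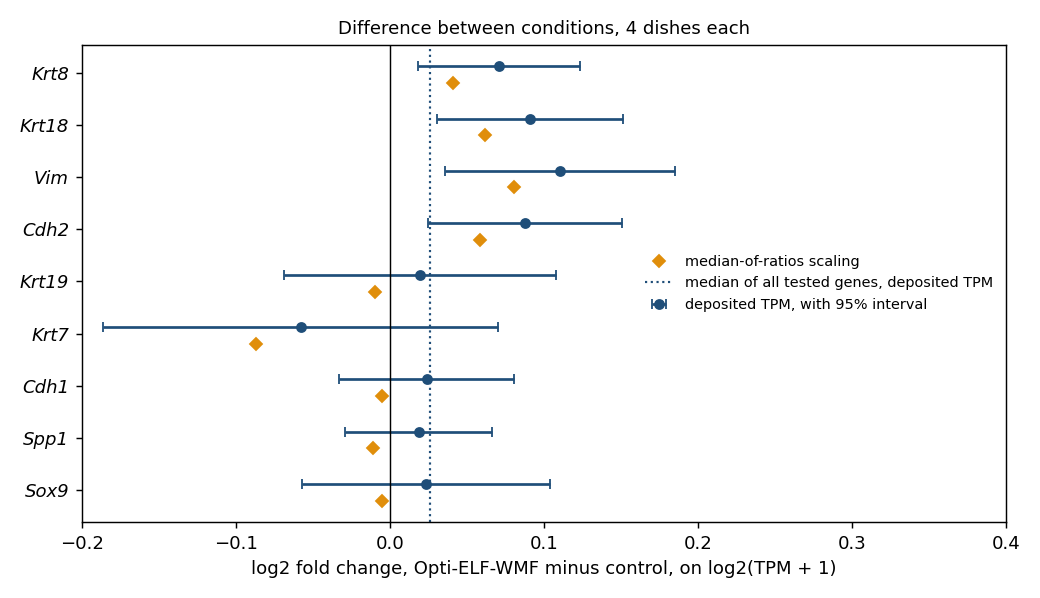
Log2 fold change of the 9 tested members, Opti-ELF-WMF minus control, on the log2(TPM + 1) scale (n = 4 dishes each). Circles with bars are deposited TPM with 95% intervals from limma, diamonds are values after median-of-ratios scaling, and the dotted line is the median of all tested genes (0.026). The intervals of Krt8, Krt18, Vim and Cdh2 lie above 0 on deposited TPM, and none of the 4 passed adjustment.

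Of the cadherins, Cdh1, the adhesion protein of epithelial junctions, lies on the plus strand at chr8:106603351-106670246 (ENSMUSG00000000303). Control dishes held 171.7, 175.8, 172.3 and 173.1 TPM, and exposed dishes 175.5, 181.0, 178.2 and 170.0 TPM. The exposed dishes spread to both sides of the control dishes, which lay close together (log2 fold change 0.02, standard error 0.03, adjusted p = 0.707, limma).

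Cdh2 (ENSMUSG00000024304), on chromosome 18, encodes the cadherin of neural and mesenchymal cells that hepatocytes share. It measured 113.9, 114.9, 117.6 and 113.5 TPM in control dishes and 120.3, 119.1, 127.5 and 122.0 TPM in exposed dishes. Every exposed dish was above every control dish, with exposed dish 3 the highest. The log2 fold change was 0.09 (standard error 0.03, 95% interval 0.02 to 0.15, unadjusted p = 0.0114, adjusted p = 0.186, limma), with group means of 114.9 ± 1.84 and 122.2 ± 3.70 TPM (SD, n = 4 each). After median-of-ratios scaling and after rescaling without mitochondrial genes it was 0.06, with overlapping groups. Cdh1 exceeded Cdh2 in all 8 dishes, by a ratio of 1.47 to 1.53 in control dishes and 1.39 to 1.52 in exposed dishes, so the cadherin ratio overlapped between the groups.

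Among the biliary and progenitor markers, Spp1 lies on the plus strand at chr5:104435118-104441050 (ENSMUSG00000029304). Its values were 392.9, 385.2, 379.4 and 380.5 TPM in control dishes and 384.5, 393.8, 392.3 and 387.3 TPM in exposed dishes. The groups overlapped, and Spp1 was the tested member with the smallest relative spread, with a pooled coefficient of variation of 1.37%, smaller than that of 99.4% of tested genes (log2 fold change 0.02, standard error 0.02, adjusted p = 0.73, limma).

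Sox9, at chr11:112782224-112787760 on the plus strand (ENSMUSG00000000567), drives the biliary fate of progenitor cells. It measured 30.9, 32.0, 30.4 and 29.8 TPM in control dishes and 31.4, 31.6, 30.0 and 32.1 TPM in exposed dishes. Control and exposed dishes were interleaved (log2 fold change 0.02, standard error 0.04, adjusted p = 0.811, limma).

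Epcam, at chr17:87635979-87651129 on the plus strand (ENSMUSG00000045394), was below the abundance limit. It measured 0.13, 0.06, 0.07 and 0.03 TPM in control dishes and 0, 0.06, 0.03 and 0 TPM in exposed dishes, where 2 of 4 dishes were listed at 0. The groups overlapped (exact two-sided permutation test over 70 assignments on log2(TPM + 1), p = 0.143, where the smallest possible is 0.0286). No fold is given at this level. The marker was thus near 0 in cells where Krt19, Spp1 and Sox9, found in the same bile duct and progenitor cells, were abundant.

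Ratios between members within a dish are not moved by any scaling of the whole dish, so they were compared for all 36 pairs of the 9 tested members, as a description with no test. The groups overlapped for 33 pairs and not for 3, which are singled out after their values were seen. Over all pairs of tested genes above 0 in every dish, 6.28% of ratios had groups that did not overlap, beside 3 of these 36 pairs. Vim to Krt19 ran from 1.14 to 1.198 in control dishes and from 1.214 to 1.298 in exposed dishes. Vim to Cdh1 ran from 7.57 to 7.97 in control dishes and from 8.13 to 8.60 in exposed dishes. Cdh1 to Krt18 ran from 0.0896 to 0.0944 in control dishes and from 0.0843 to 0.0895 in exposed dishes, a separation in the last digit. Ratios of Vim to Krt8 and of Cdh1 to Cdh2 overlapped.

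The share of TPM held by genes of the mitochondrial chromosome differed between the groups as well. These 37 genes held 8.72%, 8.69%, 9.42% and 8.93% of TPM in control dishes and 6.96%, 5.99%, 7.69% and 7.52% in exposed dishes. Every exposed dish was lower. Among exposed dishes, dish 2, with the smallest share, had the highest Krt8 and Krt18 values but the lowest Cdh2 value, Cdh2 was highest in dish 3, with the largest share, and Vim in dish 1. Because TPM sums to a fixed total, a smaller share for these genes leaves a larger share for all others. Rescaled without them, the median log2 fold change of all tested genes was -0.0015 in place of 0.026, Krt18 was 2015 to 2149 TPM in control dishes and 2158 to 2203 TPM in exposed dishes, and Krt8 overlapped, at 2435 to 2504 and 2497 to 2586 TPM. The log2 fold changes were then 0.06 for Krt18 (adjusted p = 0.339), 0.08 for Vim (adjusted p = 0.342), 0.06 for Cdh2 (adjusted p = 0.526) and 0.04 for Krt8 (adjusted p = 0.446, all by limma). Of the 9 members, 2 (Krt18 and Vim) then had an unadjusted p under 0.05, and 1 (Krt18) kept its groups apart, beside 11.3% and 7.08% of all tested genes on this scaling. With median-of-ratios scaling, which sets the typical gene equal between dishes, 0 members had an unadjusted p under 0.05 and 0 had groups apart, beside 11.8% and 7.62% of all tested genes. Krt19, Cdh1, Spp1 and Sox9 had small negative log2 fold changes under both scalings, and Krt8, Krt18, Vim and Cdh2 kept positive ones.

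**Figure D3:**
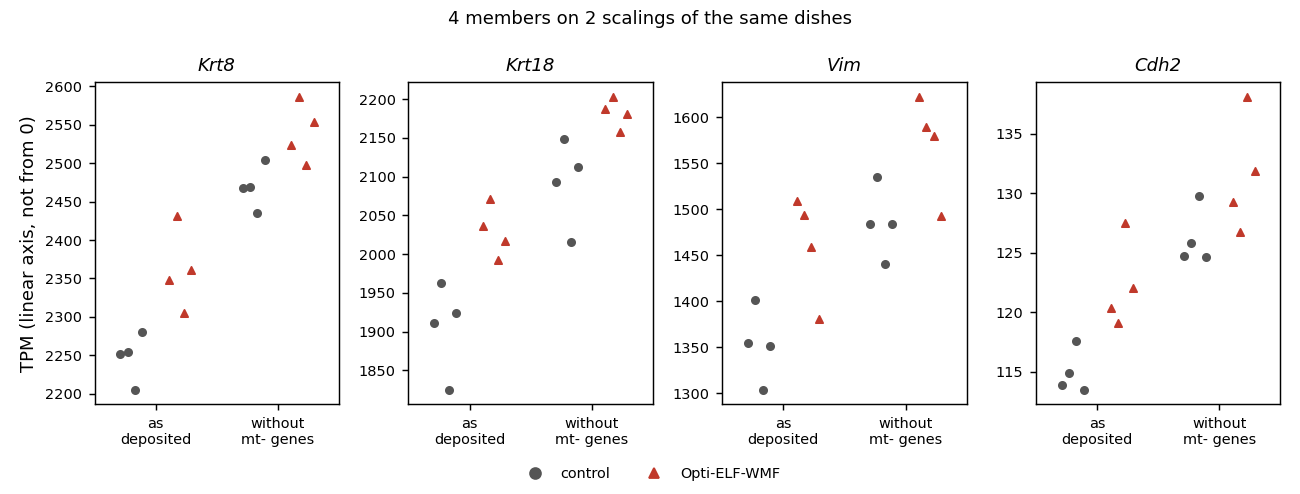
TPM of Krt8, Krt18, Vim and Cdh2 in each dish, as deposited and after rescaling to the same total without genes of the mitochondrial chromosome (mt- genes), on linear axes that do not start at 0 (n = 4 dishes each). On deposited values the groups are apart for Krt8, Krt18 and Cdh2, and after rescaling they are apart for Krt18.

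Likeness between genes was measured as the SD over the 8 dishes of the log2 ratio of TPM + 1, where a small SD means parallel values. For Krt8 the closest of 12121 other tested genes were Lamb3 (SD 0.012), Ybx3 and Akt1, and Krt18 took place 118 (SD 0.024). For Krt18 they were Polr2m (SD 0.012), Eef1g and Cers5, and Krt8 took place 38, the best place of any member beside another. For Vim they were Rpl7 (SD 0.020), Pnp and Psmf1, with Krt18 in place 100. Vim stood only in place 2042 beside Krt8, behind Krt18, Spp1 (place 922), Cdh1 (place 1009) and Sox9 (place 1511). Cdh1 stood closest to St6gal1, Eif2d and Ints5, and Spp1 to Zdhhc6, Retreg3 and Proser1. Cdh1 took place 122 beside Spp1, and Spp1 place 95 beside Cdh1. Cdh2 stood closest to Vdac3, Fxr1 and Cav2, with no member nearer than Spp1 in place 1281. Krt19 stood closest to Bcas2, Hmgn2 and Cox4i1, Krt7 to Stra6, Alpk1 and Adamts9, and Sox9 to Camk1, Mgat4b and Tmem250-ps. Krt7 was the member farthest from the rest, with Spp1 nearest in place 2461.

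The hepatocyte label was checked against 16 defining markers. Tf was not matched by symbol and, possibly listed as Trf, was not assessed. The other 15 were matched, and 10 met the abundance limit. The most abundant were Ttr (transthyretin, 353.4 TPM), Apob (210.4 TPM) and the hepatocyte transcription factor Hnf4a (192.7 TPM). Alb, the albumin gene, measured 58.2, 52.6, 53.2 and 56.4 TPM in control dishes and 48.2, 51.5, 53.0 and 46.1 TPM in exposed dishes. The groups overlapped by exposed dish 3, and the lower exposed values did not pass adjustment (log2 fold change -0.15, unadjusted p = 0.0168, adjusted p = 0.21, limma). Several markers of mature hepatocytes were at or near 0. The drug-metabolising enzyme gene Cyp2e1 was listed at 0 in all 8 dishes, and the urea cycle gene Cps1, the lectin receptor gene Asgr1, the fibrinogen gene Fgb and Apoa2 did not exceed 0.04, 0.05, 0.15 and 0.2 TPM. Hepatocyte markers summed to 933.1, 892.7, 866.6 and 910.8 TPM in control dishes and 897.7, 948.2, 906.0 and 869.9 TPM in exposed dishes, with overlap. Among the listed markers, the label therefore fits hepatocyte factors and some secreted proteins of the line, and not Cyp2e1 or Cps1. Krt19, Sox9, Spp1 and Vim were abundant beside them.

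Most defining markers of other liver cells were at or near 0, apart from Gsn, Cd14, Ecm1 and Cd68. Of 8 endothelial markers 0 met the abundance limit, 3 (Cdh5, Clec4g and Erg) were listed at 0 in every dish, and the most abundant, Pecam1, averaged 0.0288 TPM. Their sum was 0.01, 0.02, 0.06 and 0.09 TPM in control dishes and 0.03, 0.09, 0.09 and 0.08 TPM in exposed dishes. Of 9 stellate cell markers 1 met the limit, Ecm1 (15.5 TPM), and Lrat was listed at 0 in every dish. The stellate sum, nearly all Ecm1, was 15.9, 14.0, 15.4 and 14.9 TPM in control dishes and 17.2, 16.1, 14.1 and 17.7 TPM in exposed dishes. Of 8 fibroblast markers 1 met the limit, Gsn (93.1 TPM), an actin-binding protein gene that many cells express, while Lum and Dpt were listed at 0 in every dish and Col1a1 averaged 0.631 TPM. The fibroblast sum, nearly all Gsn, was 94.5, 91.0, 92.3 and 93.2 TPM in control dishes and 91.8, 96.5, 91.2 and 101.7 TPM in exposed dishes. Of 8 macrophage and leukocyte markers 2 met the limit, Cd14 (146.9 TPM) and Cd68 (1.597 TPM), and Adgre1, Clec4f and Marco were listed at 0 in every dish. Their sum, nearly all Cd14, was 150.8, 140.4, 142.7 and 151.7 TPM in control dishes and 151.6, 156.2, 152.1 and 145.0 TPM in exposed dishes. Below the limit and not tested, Csf1r was 0.01 to 0.03 TPM in control and 0.04 to 0.06 TPM in exposed dishes, without overlap. Lyz2 averaged 0.075 TPM in control and 0.275 TPM in exposed dishes and Ptprc 0.14 and 0.105 TPM, both with overlap. All of these sums overlapped between the groups, and whether other cells have a part in the values of the members was not tested.

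**Figure D4:**
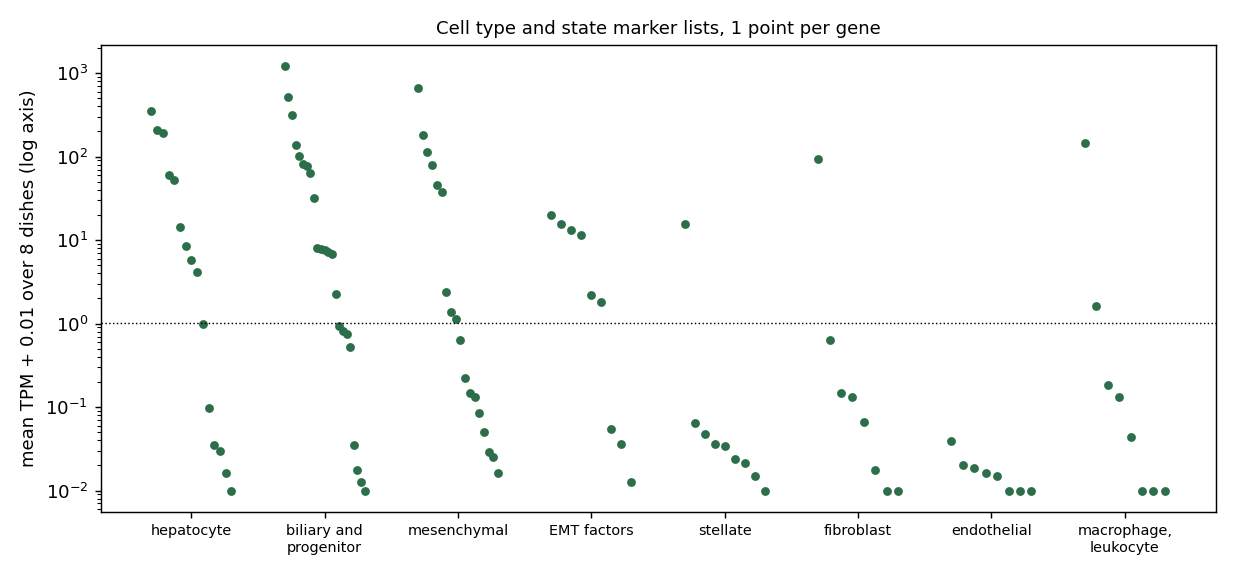
Mean TPM over all 8 dishes of each gene in 8 marker lists, 1 point per gene, ordered by level within a list, on a log axis after adding 0.01 so that genes listed at 0 can be drawn; the dotted line marks a TPM of 1. Hepatocyte, biliary and mesenchymal lists each hold genes from over 100 TPM to nearly 0, and all 8 endothelial markers lie below 0.1 TPM.

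Genes related to the members were counted from 10 further lists. Of their 147 genes, 97 were tested, 0 had an adjusted p under 0.05, and 17 (17.5%) had an unadjusted p under 0.05, 12 with higher and 5 with lower values in exposed dishes, beside 15.6% of all tested genes. The groups did not overlap for 15 of the 97 genes, beside 9.87% of all tested genes. The median log2 fold change of the 97 genes was 0.025. These counts, and the counts, fold changes and overlaps of each list below, rest on deposited TPM. Krt8 and Cdh2 overlapped on other scalings, and whether the listed genes stay apart on those was not examined. On deposited TPM 1451 of all tested genes had higher and 443 lower values at an unadjusted p under 0.05 by limma. After median-of-ratios scaling 673 had higher and 755 lower values.

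Of 14 linkers and relatives of keratin and vimentin filaments, 7 were tested, and 4 had an unadjusted p under 0.05, all with higher values in exposed dishes. Krt20 averaged 315.6 ± 4.70 TPM in control and 337.8 ± 9.56 TPM in exposed dishes (SD, n = 4 each) without overlap (log2 fold change 0.10, adjusted p = 0.14, limma). Krt80, a type II keratin, was 18.4 ± 0.344 and 19.8 ± 0.515 TPM, also without overlap (log2 fold change 0.10, adjusted p = 0.222, limma). Eppk1 was apart in the other direction, at 1.73 to 1.86 TPM in control and 1.57 to 1.71 TPM in exposed dishes (log2 fold change -0.07, adjusted p = 0.709, limma). The most abundant gene of the list was Lmna, the nuclear lamin A/C gene (386.0 TPM, log2 fold change 0.09, adjusted p = 0.263, limma). Krt5 and Krt14, keratins of stratified epithelia, and Des, the muscle filament gene, were below 0.2 TPM in every dish.

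Of 21 cadherin partners and tight junction genes, 15 were tested, and 3 had an unadjusted p under 0.05, all with higher values in exposed dishes. The most abundant was Ctnnb1, the gene of beta-catenin, which binds cadherin tails (942.2 TPM). Cldn2, a claudin that forms cation pores, averaged 327.9 ± 6.54 TPM in control and 353.4 ± 7.01 TPM in exposed dishes (SD, n = 4 each), with no overlap (log2 fold change 0.11, unadjusted p = 0.00137, adjusted p = 0.122, limma). Ctnna1, the gene of alpha-catenin, was 349.6 ± 2.48 and 366.3 ± 10.2 TPM, also without overlap (adjusted p = 0.229, limma). Cldn3 was listed at 0 in every dish, and Cldn1, Cldn4 and Cldn7 did not exceed 0.16 TPM.

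Of 23 other biliary and progenitor markers, 15 were tested, and 1 had higher and 1 lower values at an unadjusted p under 0.05. Anxa4, an annexin and the most abundant of the list, averaged 1191 ± 8.51 TPM in control and 1252 ± 15.9 TPM in exposed dishes (SD, n = 4 each) without overlap (log2 fold change 0.07, adjusted p = 0.142, limma). Foxj1, a factor of ciliated cells, was 7.16 ± 0.397 and 6.30 ± 0.572 TPM (adjusted p = 0.309, limma). Onecut1, a factor of bile duct development, was 7.465 ± 0.490 and 6.785 ± 0.604 TPM (adjusted p = 0.458, limma). The median log2 fold change of the list was -0.02. Prom1 did not exceed 0.02 TPM, whereas Cd24a stood at 514.8 TPM.

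Of 18 mesenchymal markers found outside the members, 9 were tested and 1 had an unadjusted p under 0.05, with lower values in exposed dishes. That gene, Postn (periostin, a matrix protein), was 1.84 ± 0.439 TPM in control and 0.883 ± 0.235 TPM in exposed dishes (SD, n = 4 each) without overlap (log2 fold change -0.59, unadjusted p = 0.0021, adjusted p = 0.129, limma). Its values were 1.76, 2.12, 2.22 and 1.25 TPM in control dishes and 0.78, 1.19, 0.64 and 0.92 TPM in exposed dishes. Control dish 4 thus lay nearer to exposed dish 2 than to the other control dishes. All control dishes reached the limit of 1 TPM, and exposed dishes 1, 3 and 4 did not. Postn thus passed the filter through its control values, and its p-value is no support for a difference. Tnc, the matrix gene tenascin C, was 2.252 ± 0.0538 and 2.515 ± 0.173 TPM (adjusted p = 0.516), and S100a4, a calcium-binding protein gene, 35.8 ± 3.97 and 38.8 ± 3.88 TPM (adjusted p = 0.588, limma), both with overlap. The most abundant were Ccn2, a secreted matricellular protein gene (672.5 TPM), and Fn1, the fibronectin gene (181.9 TPM). Acta2, the smooth muscle actin gene, did not exceed 0.35 TPM. Of 21 mesenchymal, stellate and fibroblast markers below the limit, none of them tested, 4 were, like Postn, higher in each of control dishes 1 to 3 than in control dish 4 and the exposed dishes, an order looked for after the values were seen. The other 17 did not follow it. How many of all genes below the limit follow this order was not counted. Whether it is more frequent among these markers is therefore unknown. Of the EMT transcription factors below the limit, which are not among the 21 and were not tested, Twist1 and Prrx1 followed this order and Foxc2 did not. Twist1 was 0.14, 0.09, 0.04 and 0 TPM in control dishes and did not exceed 0.03 TPM in exposed dishes. Prrx1 was 0.06, 0.08, 0.05 and 0 TPM and did not exceed 0.02 TPM. The mean of exposed dishes was lower for 12 of the 21, higher for 6 and 0 in both groups for 3. Col1a2, a collagen gene, was 0.37, 0.28, 0.41 and 0.01 TPM in control dishes and did not exceed 0.02 TPM in exposed dishes. Lox, a matrix enzyme gene, was 0.10, 0.08, 0.13 and 0 TPM in control dishes and at most 0.01 TPM in exposed dishes, and Pdgfrb, a stellate marker, was 0.04, 0.02, 0.05 and 0 TPM in control dishes and listed at 0 in exposed dishes. Fbn1 did not exceed 0.02 TPM. Among markers outside this order, Col3a1 had its highest value, 0.47 TPM, in exposed dish 3, and Col1a1 measured 1.12 TPM in exposed dish 2, above control dishes 1 and 3. Whether these values come from other cells was not tested.

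Of 9 EMT transcription factors, 6 were tested, and 1 had an unadjusted p under 0.05. Snai2, the most abundant, averaged 18.8 ± 1.33 TPM in control and 20.7 ± 0.860 TPM in exposed dishes (SD, n = 4 each), with overlap (log2 fold change 0.14, adjusted p = 0.274, limma). Zeb1 was 14.2 ± 0.823 and 16.6 ± 2.63 TPM (adjusted p = 0.355), and Snai1 1.97 ± 0.252 and 1.64 ± 0.218 TPM (adjusted p = 0.458, limma). Of 12 epithelial transcription and splicing regulators, 5 were tested, and 1, Klf5, had an unadjusted p under 0.05, at 39.6 ± 0.862 and 42.6 ± 1.03 TPM without overlap (log2 fold change 0.10, adjusted p = 0.171, limma). Esrp2, a splicing regulator of epithelia, ran from 19.17 to 21.09 TPM in control and from 18.2 to 20.13 TPM in exposed dishes (adjusted p = 0.458), and Elf3, an epithelial factor, 10.02 ± 0.608 and 9.315 ± 0.553 TPM (adjusted p = 0.496, limma). Esrp1 did not exceed 0.02 TPM, and Grhl2, an epithelial factor that acts on Cdh1 and Epcam, did not exceed 0.04 TPM.

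Among signals known to act on Sox9, 12 of 16 Notch pathway genes were tested, and 1 had an unadjusted p under 0.05. Notch1, a receptor, averaged 37.6 ± 4.31 TPM in control and 33.1 ± 1.72 TPM in exposed dishes (SD, n = 4 each) with overlap (log2 fold change -0.18, adjusted p = 0.294, limma), and the most abundant gene was the target Hes1 (55.6 TPM). Lfng, which modifies the receptors, was 8.238 ± 0.635 and 7.372 ± 0.471 TPM (adjusted p = 0.348), and Nrarp, a feedback gene, 3.553 ± 0.459 and 3.000 ± 0.224 TPM (adjusted p = 0.364, limma). Of 16 TGF-beta pathway genes 14 were tested, and 1, the ligand gene Tgfb3, had an unadjusted p under 0.05, at 7.12 ± 0.251 and 6.34 ± 0.289 TPM without overlap (log2 fold change -0.15, adjusted p = 0.239, limma). The pathway inhibitors Ski (26.3 ± 0.638 and 27.7 ± 1.10 TPM, adjusted p = 0.39) and Smurf2 (25.2 ± 1.38 and 26.6 ± 1.09 TPM, adjusted p = 0.481, limma) had overlapping groups. The receptor gene Tgfbr1 was the most abundant of them (152.2 TPM).

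Of 10 genes for osteopontin receptors, 7 were tested, and 1 had higher and 1 lower values at an unadjusted p under 0.05. Itgb1, the beta1 integrin gene and the most abundant, averaged 329.6 ± 5.24 TPM in control and 348.0 ± 7.46 TPM in exposed dishes (SD, n = 4 each) without overlap (log2 fold change 0.08, adjusted p = 0.171, limma). Itgb6, an epithelial integrin gene, was 18.7 ± 0.289 and 17.6 ± 0.459 TPM, also without overlap (log2 fold change -0.08, adjusted p = 0.318, limma). Itgb3, the beta3 integrin gene, was 5.528 ± 0.229 and 5.043 ± 0.374 TPM (adjusted p = 0.45, limma). Its lowest control dish was 5.4 TPM and its highest exposed dish 5.39 TPM, a separation in the last digit. Of 12 partners and proteases of EpCAM, 10 were tested, so most were present in cells that nearly lacked Epcam itself. The most abundant was the tetraspanin gene Tspan8 (315.4 TPM), and 1, Fhl2, which encodes a partner of the cleaved EpCAM tail, had an unadjusted p under 0.05, at 85.7 ± 1.99 and 92.8 ± 4.21 TPM without overlap (log2 fold change 0.11, adjusted p = 0.181, limma). Spint2, a protease inhibitor gene, was 104.7 ± 5.14 and 109.7 ± 3.74 TPM (adjusted p = 0.461, limma).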

How the data were processed

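From AML12 cells after 1 h, the authors prepared stranded mRNA libraries, and the authors deposited TPM for each dish. The submitters' processing notes name Trimmomatic 0.39, STAR 2.7.4a, RSEM 1.3.3 and the mm10 build. The annotation release was not given in the sources used here, and the depth of the libraries is unknown. Members and lists were chosen with earlier results of these data known. Genes that reached a TPM of 1 in 4 or more samples were tested with limma 3.58.1 (lmFit, eBayes with trend) in R 4.3.3 on log2(TPM + 1), with Benjamini-Hochberg adjustment over 12122 genes, and the procedure was tested on simulated data. A member below the limit was tested by exact permutation. All members were named, and from each related list the most abundant gene and up to 3 genes with the smallest unadjusted p; for cell type lists, the most abundant gene and markers at 0. Some genes this rule takes are not used here. Other genes, among them Alb and markers near 0, were added after their values were seen. Likeness used the 3 closest genes per member. Promoters are from RefSeq (GRCm38.p6), and GENCODE M21, on GRCm38, gave positions for 55141 of 55401 gene identifiers. Alternatives covered the pseudocount, filter, scaling, variance trend, replicate block and each left-out dish.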

Additional observations from a re-analysis of the deposited data

Results flagged for a closer look

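Among 96 groups of 4 dishes checked (the members' TPM, the ratios between members, the mitochondrial share and the ratio of keratin types), 4 held a dish whose gap to the nearest other dish, as a share of the group's range, passed the limit of Dixon's Q for 4 values at the 5% level. These 4 shares ran from 0.872 to 0.917, and chance gives about 4.8 such groups. All 4 were ratios. In control dishes, Cdh1 to Krt18 was 0.09438 in 1 dish against 0.08957 to 0.08997 in the others, Cdh1 to Spp1 was 0.437 against 0.454 to 0.456, and Krt19 to Spp1 was 2.90 against 3.03 to 3.04. In exposed dishes, Cdh2 to Sox9 was 4.25 in 1 dish against 3.77 to 3.83. No TPM value of a member passed this limit, and no cause was tested.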

How the results depend on the processing

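Depth is unknown, which limits what can be said of Epcam and other low genes. The number of genes with an adjusted p under 0.05 by limma was 0 on deposited values and 1 (1110028F11Rik) when only genes reaching a TPM of 1 in all samples were kept, with median-of-ratios scaling, with upper-quartile scaling and with eBayes without trend. Leaving out each dish in turn gave 0 to 2, with 2 without control replicate 2 and 1 without control replicate 3. The number of members with an unadjusted p under 0.05 was 4, against 0 with median-of-ratios scaling, 3 with upper-quartile scaling and 2 without mitochondrial genes, and it was 4 with each dish left out. The number of members whose groups did not overlap was 3, against 0 with median-of-ratios scaling, 1 with upper-quartile scaling and 1 without mitochondrial genes. Among genes with an unadjusted p under 0.05, 76.6% had higher values in exposed dishes, against 47.1% with median-of-ratios scaling, 63.3% with upper-quartile scaling and 50.7% without mitochondrial genes. The log2 fold change reversed with median-of-ratios scaling and without mitochondrial genes for Krt19 (-0.0098 and -0.0101), Cdh1 (-0.0053 and -0.0056), Spp1 (-0.0107 and -0.0111) and Sox9 (-0.0049 and -0.0053). Both scalings also move the median of all genes from 0.026 to about 0, to -0.0013 and -0.0015. With each dish left out, Krt19 ran from -0.0103 (without Opti-ELF-WMF replicate 1) to 0.042, and was -0.0023 without control replicate 3, Krt7 from -0.106 to -0.0245, Cdh1 from 0.0108 to 0.041, Sox9 from 0.0088 to 0.0428 and Spp1 from 0.0123 to 0.029. The cause of these changes was not tested. Without control replicate 2 or without Opti-ELF-WMF replicate 4, the groups of Vim were apart as well. Same-numbered dishes did not deviate together (correlations from -0.042 to 0.026), and with the replicate block 1889 genes and 4 members had an unadjusted p under 0.05 and 0 genes an adjusted one.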
